A study of Micropterus salmoides with 24 samples.

Results

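The 150 transcript contigs described here were present at similar levels in trunk and head kidney of male largemouth bass, yet differed widely between trunk libraries while staying steadier between head libraries. A contig is an assembled stretch of transcript sequence, and 1 gene can be split over several. The 150 were taken from 78435 contigs by their level and spread. A contig had to reach a log2 CPM of at least 1 in all 24 libraries, with tissue means within 1 of each other on the log2 scale. CPM are counts scaled to a common library size over all 24 libraries, with the trimmed mean of M values (TMM), and the log2 used a prior count of 2. Of the contigs whose standard deviation (SD) over the 12 trunk libraries was at least 2 times that over the 12 head libraries, the 150 with the largest trunk SD were kept. The rule used no treatment label. Spread in trunk, spread in head, their ratio and the resemblance of the contigs in trunk libraries are therefore descriptions and carry no test.

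The libraries fall into 6 groups of 4. Adult males had been held for 21 days in water with Rodeo, a commercial glyphosate herbicide for use on water weeds, in water with glyphosate, or in clean water as the control. Rodeo and glyphosate water alike held 10 mg/L of glyphosate. Each treatment gave 4 trunk kidney and 4 head kidney libraries of poly(A) RNA. The labels do not tie a sequenced fish to a tank, so p-values measure only the spread between these libraries. No genetic line, single clone or pooled animal is named in the labels.

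In bony fish the kidney has a front and a rear part with different work. The trunk kidney holds the nephrons, which filter the blood and move ions, with blood-forming tissue between the tubules. The head kidney has few or no nephrons in the adult and makes blood and immune cells, and it holds the steroid-producing interrenal cells and the chromaffin cells. A piece of trunk kidney can thus hold more or less of several tissues. In bulk RNA, fewer cells of a type and less RNA per cell cannot be told apart.

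The contigs carry identifiers of 3 kinds and no gene names. None of them matched the RefSeq gene table of the species' assembly ASM1485139v1 (0 matches), so no function is given to any contig and the tissue labels could not be checked against nephron, interrenal or blood cell markers. No contig sequence was used here. Of the 150 contigs, 103 were LMB_Assem contigs, 31 isotigs and 16 of the kind named contig. These shares of 68.7%, 20.7% and 10.7% stand beside 72.4%, 15.6% and 11.9% of the 7969 contigs that met the conditions on level and tissue means, called the eligible contigs below.

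Trunk libraries held 22259411 to 29858387 counts and head libraries 9871623 to 24374444. No molecular identifiers are mentioned in the labels. The smallest count of any of the 150 contigs in any library was 24. Over 64 contigs that were clearly on or off from library to library, 8 trunk libraries were alike in 96.9% to 100% of the contigs to 1 head library each, while no other trunk and head pair was alike in more than 85.9%. Of these 8 pairs, 0 carried the same treatment label. Trunk glyphosate 4 paired with head control 2, trunk control 2 with head glyphosate 4, and trunk control 3 with head Rodeo 1. The other pairs were trunk Rodeo 1 with head control 3, trunk Rodeo 2 with head control 4, trunk Rodeo 4 with head glyphosate 1, trunk control 1 with head glyphosate 3, and trunk glyphosate 1 with head Rodeo 3. If a matched pair comes from 1 fish, its 2 treatment labels cannot both be right, and which of them holds cannot be told apart here. Every treatment comparison and every difference between tissues below is one between libraries as labelled, and its meaning as a treatment effect rests on those labels. Calls and named fold changes are also given without the matched libraries. The labels of the libraries that remain could not be checked either, so that fit is no test of the labels. None of the 64 on or off contigs was among the 150 (0 contigs).

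Spread was wide in trunk kidney and narrow in head kidney by construction, and the sizes were as follows. The SD of log2 CPM of the 150 contigs ran from 0.67 to 1.88 in trunk, with a median of 0.85. In head it ran from 0.16 to 0.91, with a median of 0.37. The median contig thus spanned a 7.83-fold range over trunk libraries (3.64 to 158) and a 2.33-fold range over head libraries (1.46 to 11.8). These folds were taken from log2 CPM with its prior count of 2, so they differ slightly from ratios of CPM. Over the eligible contigs the median SD was 0.42 in trunk and 0.41 in head, so the head spread of the 150 was a little under that of contigs at large. At the edge of the list, isotig92026 had a trunk SD of 0.674 and was the last inside, and LMB_Assem.9671.C1 with 0.6715 was the first outside. The lowest ratio inside was 2.001. The highest ratio under the limit at a trunk SD as large was 1.999, and 667 of the 817 eligible contigs with so large a trunk SD fell under the limit of 2.

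Contigs steadier in head than in trunk outnumbered the mirror image. A trunk SD at least 2 times the head SD was met by 359 eligible contigs (4.50%), and a head SD at least 2 times the trunk SD by 245 (3.07%). That order rested on trunk glyphosate 4. Without that library, 246 contigs met the first condition and 378 the second, and 101 of the 150 would still be chosen. Without trunk glyphosate 3, trunk glyphosate 4 and trunk control 2 together, the counts were 156 and 667, and 59 of the 150 would still be chosen. Only trunk libraries were left out here, which lowers the spread in trunk and leaves that in head. Of the eligible contigs' summed squared deviations, head control 3 held 18.85% in head and trunk glyphosate 4 held 17.03% in trunk. The counts were not recomputed without head control 3.

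**Figure D1:**
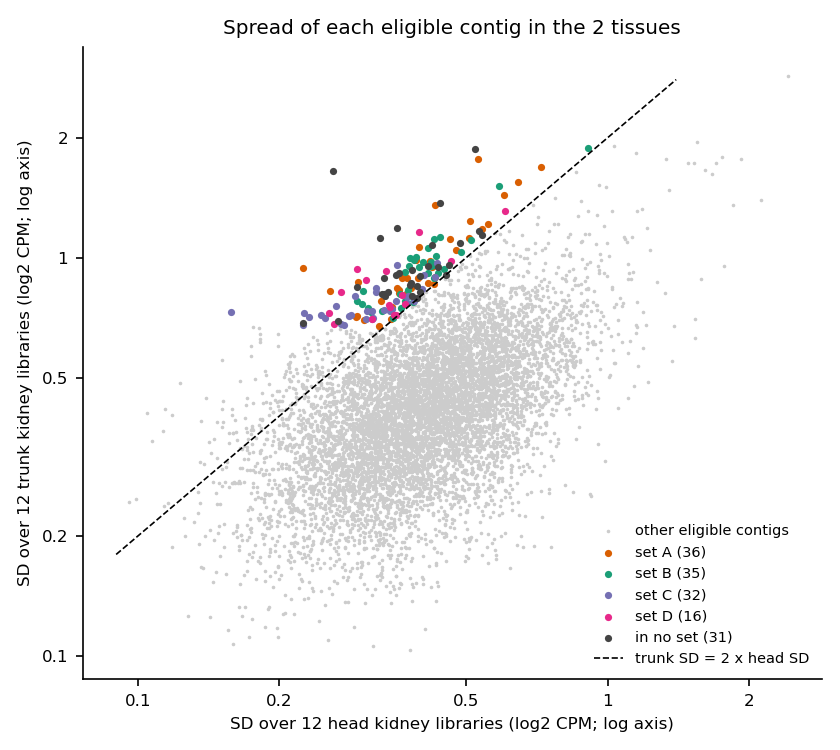
Each point is 1 eligible contig, with the SD of its log2 CPM over 12 head libraries on the horizontal log axis and over 12 trunk libraries on the vertical log axis. The 150 contigs lie above the dashed line at 2 times the head SD and at or above a trunk SD of 0.674. Colours mark the sets A to D of contigs that vary together.

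The spread of the 150 contigs was carried unevenly by the trunk libraries. Trunk glyphosate 4 held 21.3% of their summed squared deviations, trunk glyphosate 3 held 14.2% and trunk control 2 held 13.2%, which together made 48.8%. The same 3 libraries held 44.2% over the eligible contigs, so they stood apart in the tissue's contigs at large too. For 132 of the 150, the highest or the lowest trunk value lay in one of these 3 libraries. A ratio of at least 2 held for 58 contigs whichever trunk library was left out. The other 92 fell under 2 without at least 1 library, most often without trunk glyphosate 4 (44 contigs), trunk control 2 (30) or trunk glyphosate 3 (27).

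The glyphosate group was the most spread of the 3. The median SD of the 150 contigs was 0.456 within trunk Rodeo, 0.9975 within trunk glyphosate and 0.759 within trunk control. The eligible contigs gave medians of 0.29, 0.46 and 0.34 in the same groups, so the same order was seen in the tissue at large. The largest of the 3 SDs lay in Rodeo for 10 of the 150 (6.67%), in glyphosate for 109 (72.7%) and in control for 31 (20.7%), beside 15.8%, 59.0% and 25.2% of eligible contigs.

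**Figure D2:**
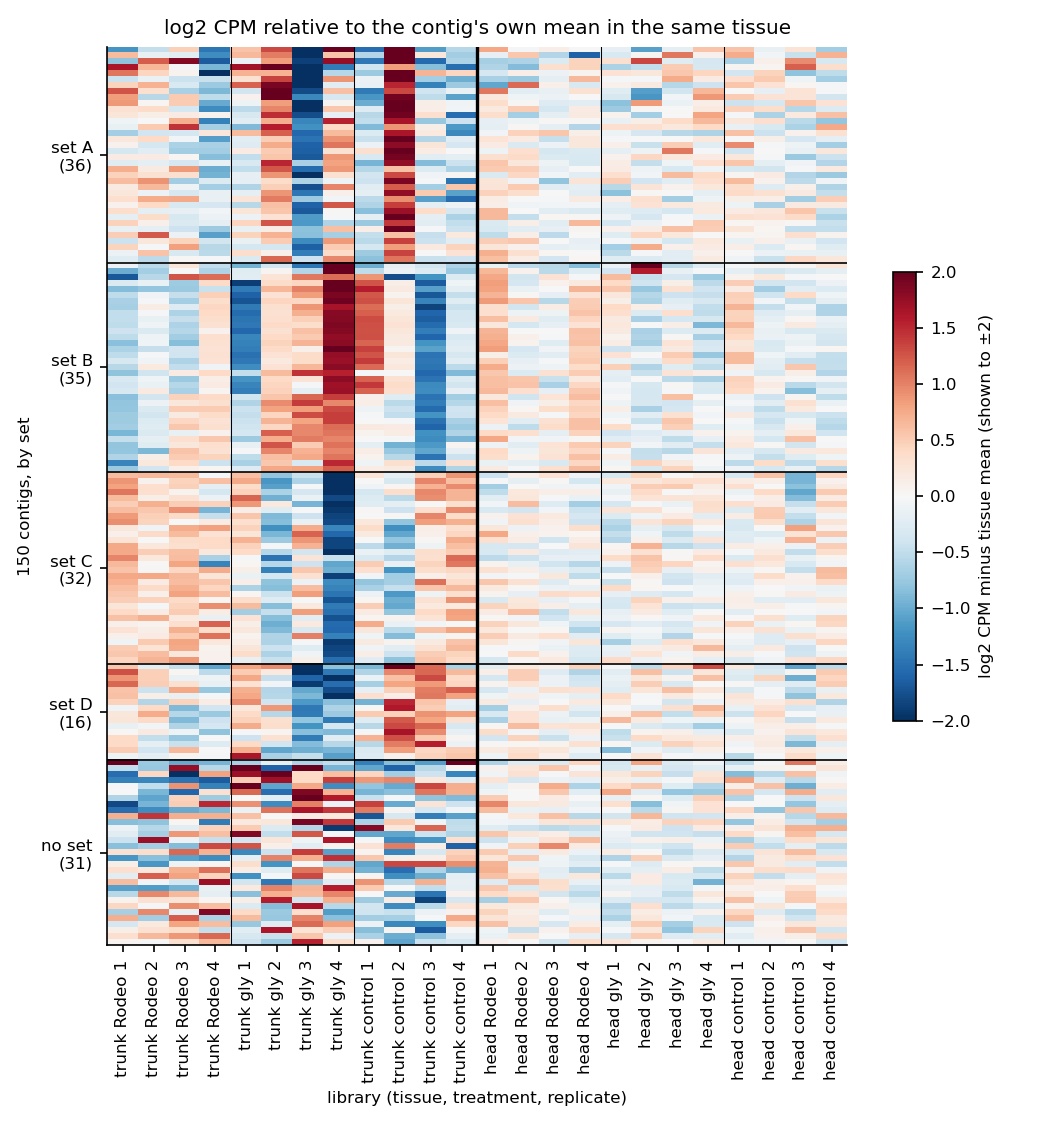
Each row is 1 of the 150 contigs and each column 1 library, and colour is log2 CPM minus the contig's mean in the same tissue, shown to ±2. Trunk columns hold blocks of strong colour, such as set A in trunk glyphosate 3 and trunk control 2 and sets B and C in trunk glyphosate 4, while head columns are pale.

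The 150 contigs did not move as one. The median correlation between pairs over the 12 trunk libraries was -0.017, and 3 components took 36.7%, 30.4% and 7.11% of their trunk variance, beside 32.3%, 29.5% and 7.91% for the eligible contigs. Grouping by correlation (average linkage, mean r of at least 0.5, at least 10 contigs) put 119 of them into 4 sets called A, B, C and D, with 36, 35, 32 and 16 contigs, and left 31 in none. Within sets the mean correlation over 12 trunk libraries was 0.70, 0.76, 0.74 and 0.66 for A, B, C and D. Over 12 head libraries the same contigs gave 0.072, 0.39, 0.15 and 0.076, so set B was the one whose contigs also moved together to some degree in head kidney. All points of such a correlation share the same libraries and their depth.

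Set A was high in 1 control library and low in 1 glyphosate library. Its level, the mean over its contigs of log2 CPM minus the tissue mean, was 0.20, 0.20, 0.054 and -0.68 in trunk Rodeo 1 to 4, 0.016, 0.95, -1.60 and 0.45 in trunk glyphosate 1 to 4, and -0.55, 1.72, -0.27 and -0.48 in trunk control 1 to 4. The groups overlapped throughout, with means of -0.058 ± 0.42 in Rodeo, -0.048 ± 1.10 in glyphosate and 0.11 ± 1.08 in control (SD, n = 4 each). Trunk control 2 was the highest library for 27 of the 36 contigs, and trunk glyphosate 3 the lowest for 30. The contig most like the rest of the set was LMB_Assem.4126.C1. It had 69.4, 69.7, 63.9 and 34.2 CPM in trunk Rodeo, 44.0, 90.9, 19.4 and 113 CPM in trunk glyphosate, and 50.2, 233, 53.6 and 54.4 CPM in trunk control. In head kidney it ran from 18.7 to 41.95 CPM with a median of 34.3.

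Set B was highest in trunk glyphosate 4 and lowest in trunk control 3. Its level was -0.66, -0.21, -0.13 and 0.23 in trunk Rodeo, -0.96, 0.49, 0.57 and 1.77 in trunk glyphosate, and 0.65, -0.045, -1.31 and -0.38 in trunk control. Group means were -0.19 ± 0.36, 0.47 ± 1.11 and -0.27 ± 0.82 in that order (SD, n = 4 each), and the ranges overlapped. Trunk glyphosate 4 was the highest library for 30 of the 35 contigs, and the lowest was trunk control 3 for 22 and trunk glyphosate 1 for 9. Isotigs made up 20 of the 35, and LMB_Assem contigs 13 (37.1%), the lowest LMB_Assem share of the 4 sets. The contig most like the set was isotig113278, with 11.6, 20.5, 15.3 and 24.6 CPM in trunk Rodeo, 6.83, 23.1, 34.0 and 57.6 CPM in trunk glyphosate, and 39.9, 20.1, 5.02 and 13.4 CPM in trunk control. Its head values lay between 8.43 and 20.9 CPM, with a median of 13.3.

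Set C was lowest in trunk glyphosate 4, and was also low in trunk glyphosate 2 and trunk control 2. Its level was 0.54, 0.32, 0.52 and 0.18 in trunk Rodeo, 0.27, -0.71, 0.11 and -1.68 in trunk glyphosate, and -0.0013, -0.53, 0.39 and 0.58 in trunk control. All 4 Rodeo libraries were above the trunk mean, at 0.39 ± 0.17, beside -0.50 ± 0.89 in glyphosate and 0.11 ± 0.49 in control (SD, n = 4 each), yet each group's range met the others'. Trunk glyphosate 4 was the lowest library for 29 of the 32 contigs. The contig most like the set was LMB_Assem.9673.C1, with 50.3, 53.1, 40.5 and 37.0 CPM in trunk Rodeo, 45.0, 22.7, 33.2 and 9.96 CPM in trunk glyphosate, and 37.9, 26.1, 49.0 and 47.2 CPM in trunk control. In head kidney it was at 47.4 to 82.0 CPM with a median of 62.5. LMB_Assem contigs were 29 of the 32 (90.6%).

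Set D was low in 2 glyphosate libraries and high in 2 control libraries. Its level was 0.43, 0.045, -0.17 and -0.34 in trunk Rodeo, 0.55, -0.10, -1.30 and -1.08 in trunk glyphosate, and -0.23, 1.05, 0.89 and 0.25 in trunk control. Group means were -0.0087 ± 0.33 in Rodeo, -0.48 ± 0.87 in glyphosate and 0.49 ± 0.59 in control (SD, n = 4 each), again with overlap. Trunk control 2 was the highest library for 8 of the 16 contigs, and the lowest was trunk glyphosate 3 for 9 and trunk glyphosate 4 for 6. The contig most like the set was LMB_Assem.1822.C3, with 133, 101, 66.2 and 67.4 CPM in trunk Rodeo, 124, 52.4, 23.7 and 18.4 CPM in trunk glyphosate, and 66.3, 109, 181 and 94.3 CPM in trunk control. Its head values ran from 23.3 to 68.8 CPM, with a median of 45.0.

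**Figure D3:**
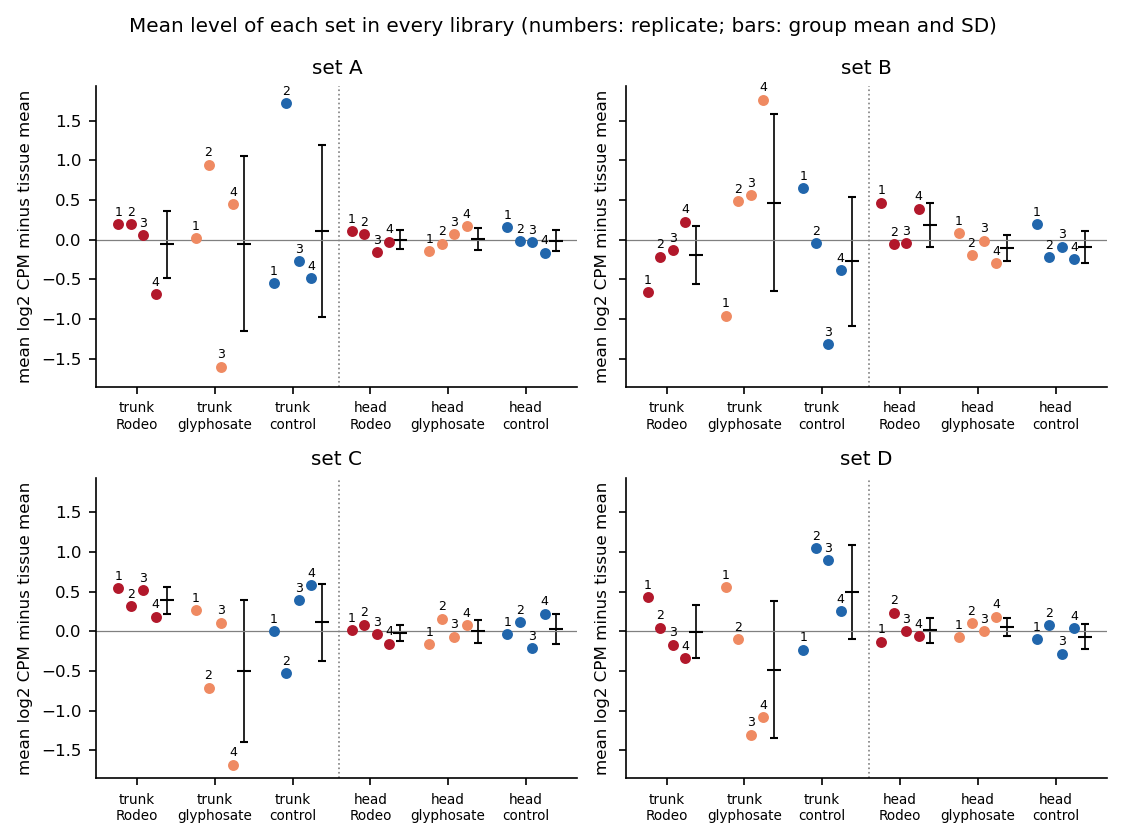
The vertical axis is the mean over a set's contigs of log2 CPM minus the tissue mean, 1 point per library with its replicate number, grouped by tissue and treatment along the horizontal axis, with bars for group mean and SD. Trunk levels span 3.32, 3.08, 2.26 and 2.35 in sets A, B, C and D, and head levels 0.33, 0.76, 0.43 and 0.52.

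Sets B and C ran against each other. Over the 12 trunk libraries their levels had r = -0.78, sets B and D had r = -0.79, sets A and D had r = 0.52, and sets C and D had r = 0.37. Set A was nearly unrelated to set B (r = 0.013), and gave r = -0.46 with set C. In the 12 head libraries the pair B and C had r = -0.52, B and D -0.52, and C and D 0.70, at levels that ranged far less.

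The trunk patterns were not restricted to the 150 contigs. Among 23968 other contigs with a mean trunk log2 CPM of at least 1, 753 correlated with the level of set A at r of at least 0.8, 1277 with B, 1374 with C and 958 with D. Correlations of -0.8 or less were reached by 434, 818, 962 and 1117. Contigs more than 1 log2 unit higher in trunk than in head made up 60.2% of those that followed set B, beside 41.99% of the 23968. They made up 32.8%, 31.9% and 24.3% of those that followed A, C and D. Contigs more than 1 log2 unit higher in head made up 1.64% of the followers of B, and 23.2%, 19.7% and 23.5% of the followers of A, C and D, beside 12.9% of the 23968. The contigs that moved with set B were thus mostly higher in trunk kidney, and those that moved with the other sets were more often higher in head kidney than contigs at large.

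The level of set B moved with properties of the trunk libraries, and the levels of sets C and D did so in part. At an equal depth of 9000000 counts a trunk library held 42745 contigs (trunk glyphosate 4) to 60466 (trunk control 3), with 51415 to 58099 in Rodeo, 42745 to 58148 in glyphosate and 53146 to 60466 in control. The 5 trunk libraries with the fewest contigs (glyphosate 4, glyphosate 3, glyphosate 2, Rodeo 4 and control 1) were the 5 with the highest level of set B. Of these 5, 4 were among the 5 lowest in set C and 4 among the 5 lowest in set D. For set A 2 were among the 5 highest and 3 among the 5 lowest. In set C, however, trunk glyphosate 3, Rodeo 4 and control 1 were at 0.11, 0.18 and -0.0013, near the trunk mean. Sets C and D ran against set B (r = -0.78 and -0.79), so their orders are not independent of its order. Of the 5 head libraries with the fewest contigs, 3 were among the 5 highest head levels of set B and 2 among the 5 lowest. In set C, 1 of them was among the 5 highest and 2 among the 5 lowest. In set D, 1 was among the 5 highest and 4 among the 5 lowest. For set D the count among the 5 lowest was thus 4 in both tissues. The contigs were chosen for a small head spread, so the head counts cannot decide whether the tissues differ in these orders. The 100 most abundant contigs took 16.1% of the counts in trunk control 3 and 36.6% in trunk glyphosate 4. The TMM factor of a library enters each of its CPM values. It was lowest in the same 5 trunk libraries with the fewest contigs, at 0.5426, 0.6416, 0.6781, 0.7721 and 0.7958 in the order named. It was highest in trunk control 3, at 1.113, and ran from 1.014 to 1.398 in head libraries. Set B thus followed the scaling factor as well as the number of contigs. The 1291 contigs at least 8-fold higher in head kidney averaged -0.83 log2 CPM in trunk glyphosate 4, the lowest, and 0.48 in trunk control 4, the highest. The 4948 contigs at least 8-fold higher in trunk averaged 3.65 in trunk control 2, the lowest, and at most 4.09. The part of these properties in the spread of the 150 contigs was not tested.

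**Figure D4:**
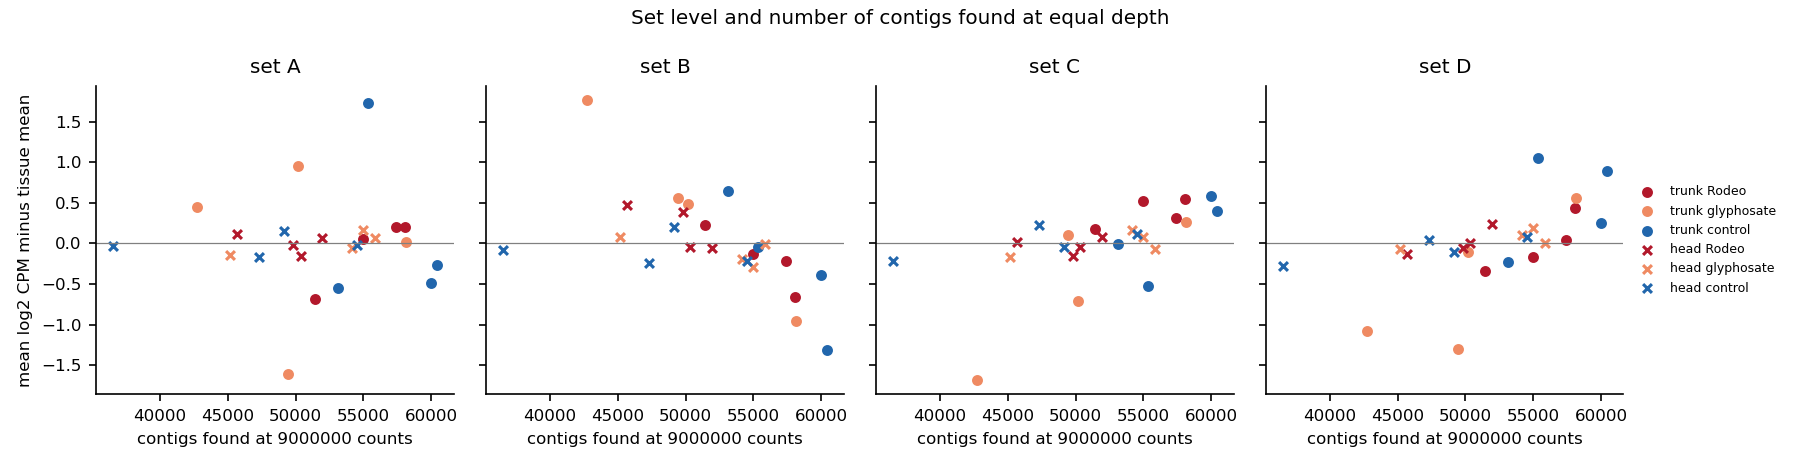
Each point is 1 library (circles trunk, crosses head, coloured by treatment), with the number of contigs found at 9000000 counts on the horizontal axis and the set level in log2 CPM minus the tissue mean on the vertical axis. In trunk, set B is highest (1.77) at 42745 contigs and lowest (-1.31) at 60466, and head levels stay near 0.

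The rule kept contigs with little spread in head kidney, so set levels near 0 in the matched head libraries are given as values and show nothing about the pairs. Set A was at 1.72 in trunk control 2 and 0.17 in the matched head glyphosate 4. Set B was at 1.77 in trunk glyphosate 4 and -0.21 in the matched head control 2, and set C was at -1.68 and 0.12 in the same trunk and head libraries. In trunk control 3, set B was at -1.31, against 0.47 in the matched head Rodeo 1. Whether a matched pair comes from 1 fish is not stated in the labels.

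In 3 of the contigs the spread lay in 1 or 2 libraries. LMB_Assem.759.C1, which had the largest trunk SD, reached 880 CPM in trunk glyphosate 4 and lay between 5.65 and 18.3 CPM in the other 11 trunk libraries. In head kidney it was at 95.7 CPM in glyphosate 2, which is in no matched pair, and at 8.02 to 17.3 CPM elsewhere. In head control 2, the library matched to trunk glyphosate 4, it was at 15.2 CPM. contig54826, with the second largest SD, had 243 CPM in trunk Rodeo 1 and 270 CPM in trunk control 4, and 6.31 to 14.6 CPM in the other 10. Its head values ran from 7.13 to 23.2 CPM, and the highest was head control 3, the library matched to trunk Rodeo 1. Another such contig, isotig100338, named after its values were seen, had 674 CPM in trunk glyphosate 4 and 12.8 to 26.6 CPM in the other trunk libraries, and 16.7 to 73.2 CPM in head, where glyphosate 2 was again highest. In the matched head control 2, isotig100338 was at -0.37 relative to its head mean (log2 CPM). These 3 were the contigs with a gap of more than 3 log2 units between neighbouring trunk values. LMB_Assem.759.C1 and isotig100338 were in set B, and contig54826 was in no set. In trunk glyphosate 4 the former were at 5.82 and 4.71 relative to their trunk means, which enter the set's level of 1.77 there. In trunk control 1 and glyphosate 3, LMB_Assem.759.C1 was at -0.98 and -1.44, while set B was at 0.65 and 0.57.

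Contigs that share an assembly number, read from their identifiers, mostly did not enter the list together. The 150 held 87 such numbers, with 15 contigs under the number 0, and only LMB_Assem.1628 and LMB_Assem.4703 among the other numbers had 2 contigs each in the list. Another 25 eligible contigs shared a number other than 0 with one of the 150, and 2 of these 25 had an SD ratio of at least 2. The trunk SD of these 25 ran from 0.25 to 1.77, with a median of 0.53, and their head SD from 0.18 to 1.33, with a median of 0.42. Their correlation with the listed contig over 12 trunk libraries ran from -0.93 to 0.98 with a median of 0.70. Whether a shared number means a shared gene is not stated in the sources used here, and contigs of like sequence can share reads, so single values are uncertain to that extent.

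About the same share of the trunk spread lay between treatment groups in the 150 contigs as in the eligible ones. Some share lies between any 3 groups of 4 libraries, whatever their labels, so these shares are not the size of a treatment effect. The share of a contig's trunk variance that lay between Rodeo, glyphosate and control had a median of 21.1% over the 150 and 22.7% over the eligible contigs. It exceeded 50% for 9 of the 150 (6%) and for 466 of the 7969 eligible (5.85%). By set the medians were 5.74% for A, 10.9% for B, 33.2% for C, 32.9% for D and 32.3% for the contigs in no set, and 8 of the 9 contigs over 50% were in no set. The median SD within groups was 0.80 in trunk, close to the SD over all 12 trunk libraries. In head kidney the median share between treatment groups was 17.99% over the 150 and 22.96% over the eligible contigs.

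In trunk kidney, 0 of the 150 contigs passed an adjusted p of 0.05 in any treatment comparison (edgeR quasi-likelihood test, Benjamini-Hochberg adjustment over 43072 contigs). Called over all contigs were 0% for glyphosate against control, 0.0186% (8 contigs) for Rodeo against control and 0% for Rodeo against glyphosate. At an unadjusted p under 0.05, 33 of the 150 (22%) differed between glyphosate and control, 26 higher and 7 lower, beside 10.5% of all contigs. The same count was 14 (9.33%) for Rodeo against control, 5 higher and 9 lower, beside 4.64%. It was 27 (18%) for Rodeo against glyphosate, 12 higher and 15 lower, beside 7.65%. Contigs chosen for a wide trunk spread also have wide differences between any groups of trunk libraries: the median size of the log2 fold change was 0.63, 0.45 and 0.67 in these comparisons, beside 0.30, 0.23 and 0.27 over the eligible contigs and 0.46, 0.35 and 0.41 over all contigs tested. Of the eligible contigs, 11.4%, 4.67% and 6.19% had an unadjusted p under 0.05. The test draws each contig's spread toward that of other contigs, so contigs chosen for a wide spread can get too small a p. The larger shares among the 150 are therefore no measure of a treatment response. With DESeq2 at the same threshold, 2, 5 and 5 of the 150 were called, beside 0.309%, 0.145% and 0.758% of all contigs. All of those contigs were in no set. LMB_Assem.10243.C1 and LMB_Assem.4535.C1 were called against control for both exposures, and LMB_Assem.947.C1, LMB_Assem.6616.C1 and LMB_Assem.2082.C2 for Rodeo against control. The calls for Rodeo against glyphosate, all lower in Rodeo, were LMB_Assem.6616.C1, LMB_Assem.2082.C2 and 3 contigs named after their values were seen (LMB_Assem.5462.C3, LMB_Assem.4703.C2 and LMB_Assem.0.CB3198).

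Sets moved as blocks because their contigs were grouped by likeness, so the counts below describe few independent patterns. For glyphosate against control, 35 of 35 set B contigs had higher fitted values (median log2 fold change 0.69). In set C 27 of 32 were lower (-0.53), and in set D 15 of 16 (-0.97). Set A had 13 higher and 23 lower, and the contigs in no set 27 higher and 4 lower. An unadjusted p under 0.05 was reached by 0, 14, 1 and 4 contigs of sets A, B, C and D. It was reached by 14 of the 31 in no set, beside 10.5% of all contigs. For Rodeo against glyphosate, 35 of 35 in set B were lower (-0.93) and 32 of 32 in set C higher (0.76). In each of these 8 had an unadjusted p under 0.05, beside 7.65% of all contigs. Set A had 10 higher and 26 lower, set D 12 higher and 4 lower, and the contigs in no set 12 higher and 19 lower. Such a p was reached there by 0, 1 and 10 contigs. Both comparisons include trunk glyphosate 4, at 1.77 in set B and -1.68 in set C. The other glyphosate libraries were at -0.96, 0.49 and 0.57 in set B and 0.27, -0.71 and 0.11 in set C. The counts were not recomputed without trunk glyphosate 4. For Rodeo against control, 29 of 36 in set A were lower (-0.42), 27 of 32 in set C higher (0.18) and 15 of 16 in set D lower (-0.60). Of those sets' contigs, 2, 0 and 2 had an unadjusted p under 0.05, beside 4.64% of all contigs. Set B had 15 higher and 20 lower, with 0 at such a p. The contigs in no set had 20 higher and 11 lower, with 10 at such a p. In set A, trunk control 2 was at 1.72 and the other control libraries at -0.55, -0.27 and -0.48. Rodeo libraries were at 0.20, 0.20, 0.054 and -0.68 in that set, so its lower count leans on trunk control 2. These counts were not recomputed without trunk control 2. Glyphosate and control libraries did not overlap for 3 of the 150 (2%; 3.99% of eligible contigs), Rodeo and control for 10 (6.67%; 5.37%) and Rodeo and glyphosate for 7 (4.67%; 3.24%).

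LMB_Assem.10243.C1, LMB_Assem.4535.C1, LMB_Assem.6616.C1 and LMB_Assem.2082.C2 belonged to no set, and each had at least 1 treatment that did not overlap the others. They were named for their small p in these trunk comparisons, so groups that lie apart are partly built in. LMB_Assem.10243.C1 had 64.3, 106.5, 65.4 and 64.5 CPM in Rodeo, 59.0, 39.03, 44.0 and 45.0 CPM in glyphosate, and 11.9, 31.6, 15.1 and 18.6 CPM in control. Control libraries lay below all exposed ones, and Rodeo above glyphosate. The log2 fold change was 1.97 ± 0.31 (SE) for Rodeo against control, with an adjusted p of 0.0779, and 1.30 ± 0.30 for glyphosate against control, with an adjusted p of 0.461. With 1 library left out at a time, the adjusted p for Rodeo against control ran from 0.0183 (without trunk control 2) to 0.422 (without trunk control 3), and 1 of 8 fits passed. LMB_Assem.4535.C1 was also lowest in control, at 84.2, 77.5, 109 and 144 CPM in Rodeo, 74.2, 56.1, 139.5 and 110.2 CPM in glyphosate, and 34.6, 23.2, 43.1 and 33.4 CPM in control. Its log2 fold change was 1.63 ± 0.33 for Rodeo against control (adjusted p 0.351) and 1.53 ± 0.33 for glyphosate against control (adjusted p 0.461).

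LMB_Assem.6616.C1 was low in all 4 Rodeo libraries. It had 12.2, 12.5, 11.1 and 9.75 CPM in Rodeo, 43.6, 101, 41.2 and 81.6 CPM in glyphosate, and 56.7, 61.2, 35.9 and 26.6 CPM in control. Rodeo overlapped neither of the other groups, and those overlapped each other. The log2 fold change was -2.58 ± 0.36 for Rodeo against glyphosate, with an adjusted p of 0.101, and -1.98 ± 0.35 for Rodeo against control, with an adjusted p of 0.16. With 1 library left out at a time, the adjusted p for Rodeo against glyphosate ran from 0.0166 (without trunk glyphosate 1) to 0.465 (without trunk Rodeo 2), and 1 of 8 fits passed. It was 0.0487 without the filter on low counts and 0.252 with the replicate number as a block. LMB_Assem.2082.C2 had the same order of groups, at 7.46, 9.39, 7.97 and 7.02 CPM in Rodeo, 14.8, 33.4, 27.4 and 46.2 CPM in glyphosate, and 24.4, 18.2, 18.4 and 24.4 CPM in control. Its log2 fold change was -1.96 ± 0.32 for Rodeo against glyphosate (adjusted p 0.101) and -1.42 ± 0.31 for Rodeo against control (adjusted p 0.544). For Rodeo against glyphosate, leaving out 1 library gave adjusted p from 0.0149 (without trunk glyphosate 1) to 0.465 (without trunk Rodeo 2), and 1 of 8 fits passed.

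LMB_Assem.947.C1 was highest in Rodeo. It had 199, 248, 287 and 348 CPM in Rodeo, 126, 115, 229 and 146 CPM in glyphosate, and 101, 79.6, 89.0 and 139 CPM in control, and Rodeo lay above control without overlap. Its log2 fold change was 1.41 ± 0.30 for Rodeo against control (adjusted p 0.402) and 0.79 ± 0.29 for Rodeo against glyphosate (adjusted p 0.592). LMB_Assem.7514.C1 had 34.7, 21.8, 17.6 and 74.3 CPM in Rodeo, 17.5, 8.32, 12.99 and 19.2 CPM in glyphosate, and 41.9, 15.3, 36.8 and 20.2 CPM in control, with 1.33 ± 0.47 for Rodeo against glyphosate (adjusted p 0.562; 0.74 on the log2 scale without Rodeo 4). In both, Rodeo and glyphosate values overlapped through 1 library. contig74960 had 7.67, 11.0, 4.40 and 3.89 CPM in Rodeo, 8.57, 4.42, 2.40 and 3.93 CPM in glyphosate, and 9.52, 9.10, 12.4 and 11.5 CPM in control, and glyphosate lay below control without overlap (log2 fold change -1.11 ± 0.41, adjusted p 0.461). LMB_Assem.10271.C1 had 7.16, 8.01, 6.54 and 4.00 CPM in Rodeo, 6.92, 7.35, 3.90 and 3.77 CPM in glyphosate, and 6.98, 22.4, 13.7 and 6.31 CPM in control (glyphosate against control -1.14 ± 0.42, adjusted p 0.461), where control 2 was the highest library. Without control 2 that fold change was -0.69.

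**Figure D5:**
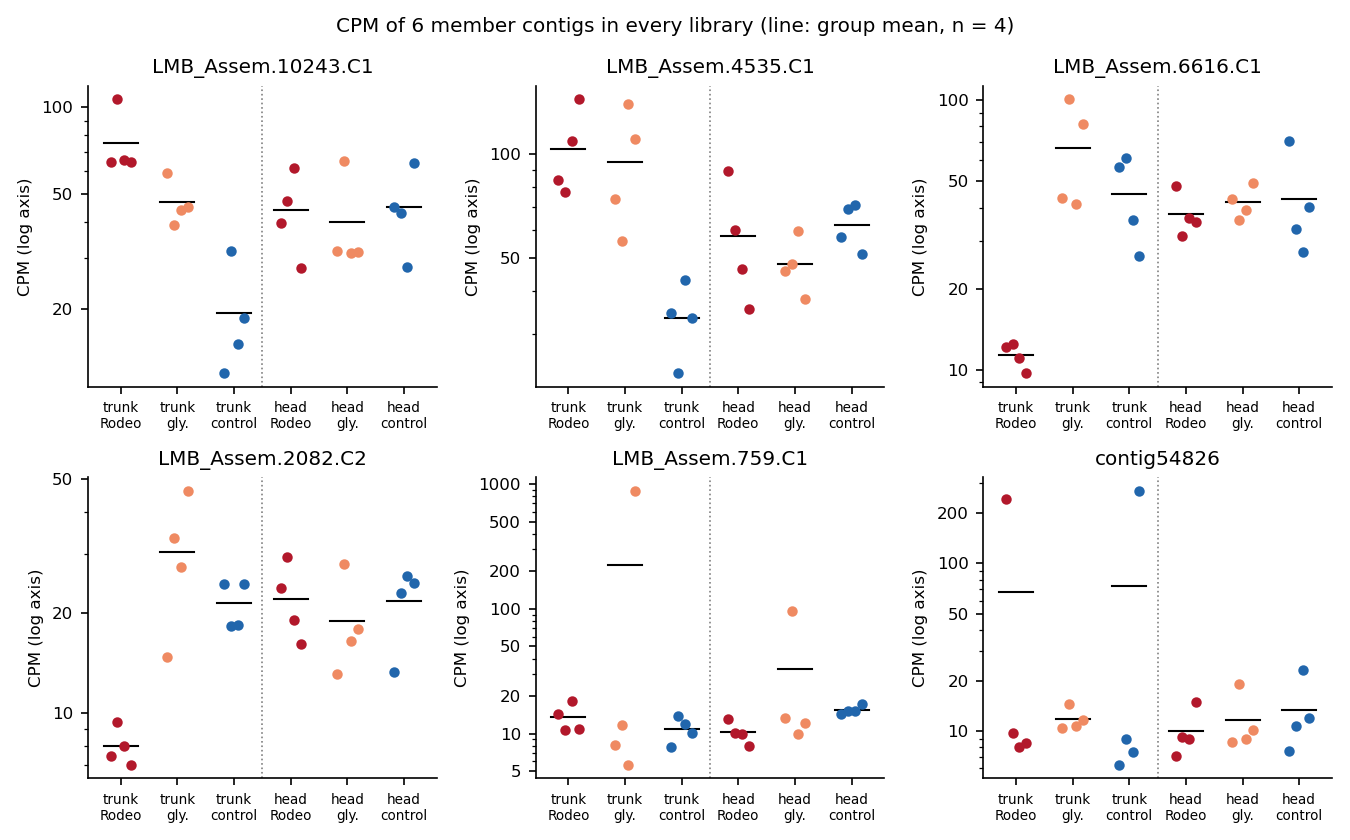
CPM (log axis) of 6 of the 150 contigs in every library, by tissue and treatment, with a line at each group's mean (n = 4). LMB_Assem.10243.C1 and LMB_Assem.4535.C1 are lowest in trunk control, LMB_Assem.6616.C1 and LMB_Assem.2082.C2 are lowest in trunk Rodeo, and LMB_Assem.759.C1 and contig54826 rest on 1 and 2 trunk libraries.

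In head kidney, 0 of the 150 passed the adjusted threshold for glyphosate against control, Rodeo against control or Rodeo against glyphosate, and 0% of the 38656 contigs tested passed in each (edgeR). DESeq2 also called 0 of the 150 in each, beside 0.0717%, 0.13% and 0.332% of all contigs. At an unadjusted p under 0.05 there were 8 (5.33%), 4 (2.67%) and 17 (11.3%) of the 150, beside 6.42%, 4.7% and 9.15% of all contigs and 10.9%, 4.20% and 14.6% of the eligible ones. The median size of the log2 fold change was 0.21, 0.17 and 0.28, beside 0.29, 0.19 and 0.30 over the eligible contigs and 0.41, 0.35 and 0.42 over all contigs, which include low ones. These contigs were chosen for a small head spread. Head libraries did not overlap between groups for 4 of the 150 (2.67%; 4.43% of eligible contigs), 5 (3.33%; 2.94%) and 12 (8%; 10.1%). The contigs with the smallest p in trunk had close group means in head. LMB_Assem.10243.C1 averaged 44.0 ± 14.1 CPM in head Rodeo, 39.8 ± 16.9 CPM in head glyphosate and 45.0 ± 14.9 CPM in head control (SD, n = 4 each). LMB_Assem.6616.C1 averaged 37.9 ± 7.10, 41.97 ± 5.73 and 42.9 ± 19.1 CPM in the same groups.

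The difference between the tissues' responses was tested itself, over 24 libraries and 52407 contigs. The fit took the 24 libraries as independent, with no term for the fish. If the 8 matched pairs each come from 1 fish, that does not hold, and the SE and p below are uncertain to that extent. For the glyphosate effect in trunk minus that in head, 0 of the 150 passed, beside 0% of all contigs, and for the Rodeo effect 0 passed, beside 0.00572% (3 contigs). Unadjusted p under 0.05 was reached by 32 (21.3%) for glyphosate, beside 12% of all and 17.7% of eligible contigs, and by 13 (8.67%) for Rodeo, beside 6.04% and 5.28%. DESeq2 called 2 of the 150 for each effect, beside 0.675% and 0.244% of all contigs. These were LMB_Assem.4535.C1 and, named after its values were seen, LMB_Assem.2519.C1 for the glyphosate effect, and LMB_Assem.10243.C1 and LMB_Assem.947.C1 for the Rodeo effect. A larger effect in trunk is partly built into contigs chosen for a larger trunk spread. LMB_Assem.10243.C1 had a Rodeo effect 1.99 ± 0.46 larger in trunk on the log2 scale (SE, adjusted p 0.2995), LMB_Assem.6616.C1 one of -1.81 ± 0.45 (adjusted p 0.373), and LMB_Assem.4535.C1 a glyphosate effect 1.90 ± 0.43 larger (adjusted p 0.256).

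Without the 8 trunk and 8 head libraries of the matched pairs, 2 glyphosate libraries and 1 library each of Rodeo and control remained in trunk. In that fit 1 of the 150 passed in each trunk comparison, beside 0.521% of all contigs for glyphosate against control, 0.4% for Rodeo against control and 0.329% for Rodeo against glyphosate. It was contig54826 for both comparisons with control and isotig99690 for Rodeo against glyphosate. In head, 1 passed for Rodeo against glyphosate (LMB_Assem.759.C1), beside 0.663% of all contigs, and 0 in the other comparisons. These contigs were named after their values were seen. The labels of the remaining libraries could not be checked, so values that stay alike do not show that the labels are right. The lone libraries are assumed there to vary like the others, and contig54826 was called on the single control library in which it was high. LMB_Assem.759.C1 was called on head glyphosate 2, the only head glyphosate library left, where it was at 95.7 CPM. The named log2 fold changes in that fit were 1.85 for LMB_Assem.10243.C1, 1.74 for LMB_Assem.4535.C1, -1.23 for LMB_Assem.6616.C1 and -1.58 for LMB_Assem.2082.C2 for Rodeo against control. They were -2.69 for LMB_Assem.6616.C1, -1.94 for LMB_Assem.2082.C2, 0.73 for LMB_Assem.947.C1 and 0.72 for LMB_Assem.7514.C1 for Rodeo against glyphosate. For glyphosate against control they were 1.20 for LMB_Assem.10243.C1, 1.59 for LMB_Assem.4535.C1, -1.71 for contig74960 and -0.12 for LMB_Assem.10271.C1, and the adjusted p of these 12 values ran from 0.487 to 1.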

How the data were processed

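The deposited files hold whole read counts per transcript contig and library, not normalized by the authors, and contigs missing from a library's list were taken as 0. The submitters' processing notes name the tools cutadapt, SAMtools, DESeq and edgeR. How reads were aligned and counted, and how the contigs were assembled, is not given in the sources used here. Sample titles gave the groups and the replicate numbers. Log2 CPM (TMM over 24 libraries, prior count 2) gave the list, the sets and the CPM in the text. The list and all rules here were chosen with earlier results of these data known.

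Treatments were compared with edgeR 4.0.16 in R 4.3.3 (TMM, filterByExpr, quasi-likelihood test, Benjamini-Hochberg adjustment, threshold 0.05), with the 3 groups of a tissue fitted together and 6 groups for differences between tissues. Scripts were tested on simulated data. DESeq2 1.42.0, other scalings (edgeR's RLE), other prior counts, no filter, a replicate block and leaving out libraries were alternatives. Named contigs are the 2 higher and 2 lower with the smallest p in each trunk comparison, the 2 with the largest trunk SD, those at the edge of the list and the most central of each set. Library totals were 9871623 to 29858387 counts. Libraries of a group differed well beyond sampling noise (chi-square per degree of freedom 31.4 to 157.6), so none was counted as a duplicate. Same-numbered trunk Rodeo and glyphosate libraries deviated together (r 0.106 to 0.207 in 4 of 4 pairs, over all contigs), and no other pair of groups did so in every pair. Differently numbered libraries of these groups gave r from -0.157 to 0.1085, which overlaps that range. Differently numbered trunk glyphosate and control libraries reached 0.3125.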

Additional observations from a re-analysis of the deposited data

Results flagged for a closer look

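Of 120 groups of 4 libraries looked at (16 named contigs and 4 set levels, in 6 groups each), 12 held 1 library set far apart from the other 3, where chance alone sets apart about 1 in 20 groups. The contigs were named for their spread, their place in the list or their p, and the sets rest on the same trunk values, so these libraries are a description and the count is not to be read against that rate. LMB_Assem.10243.C1 was at 106.5 CPM in trunk Rodeo 2 and at 65.1 CPM in head glyphosate 2, each above the rest of its group. LMB_Assem.947.C1 was at 326 CPM in head glyphosate 2. LMB_Assem.759.C1 was at 880 CPM in trunk glyphosate 4 and 95.7 CPM in head glyphosate 2. contig54826 was at 243 CPM in trunk Rodeo 1 and 270 CPM in trunk control 4. isotig92026, the last contig inside the list, stood apart at 30.2 CPM in head glyphosate 4. LMB_Assem.4126.C1, the contig most like set A, was high at 233 CPM in trunk control 2 and low at 34.2 CPM in trunk Rodeo 4. The level of set A stood apart in the same libraries, at 1.72 in trunk control 2 and -0.68 in trunk Rodeo 4 (log2 CPM minus the tissue mean), so these 4 values are 1 pattern and not 4.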

How the results depend on the processing

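The list depended on 3 libraries: without trunk glyphosate 3, trunk glyphosate 4 and trunk control 2, 59 of the 150 contigs were chosen again, with 156 contigs over the ratio in trunk and 667 in head (a setting chosen after seeing the data). Leaving out 1 trunk library at a time, 101 to 135 were chosen again, 246 to 414 contigs met the ratio in trunk and 244 to 378 in head. No single head library was left out for these counts. RLE scaling chose 129 of the 150 again, TMM within each tissue 111, and prior counts of 0.5 and 5 chose 147 and 144. DESeq2 called 2 contigs for glyphosate against control in trunk, 5 for Rodeo against control, 5 for Rodeo against glyphosate and 2 for each difference between tissues. Dropping the filter called 1 for Rodeo against glyphosate, beside 0.00398% of all contigs. Leaving out 1 library called 0 to 1 for Rodeo against control and 0 to 3 for Rodeo against glyphosate (3 without trunk glyphosate 1), beside 0.00219% to 0.0177% and 0% to 0.0843% of all contigs in those fits. Without the matched libraries, also chosen after seeing the data, 1 was called in each trunk comparison and 1 in head Rodeo against glyphosate. With the replicate number as a block, 0 of the 150 were called in each comparison of treatments. Of 168 recomputed fold changes of named contigs, 156 stayed on their side of the threshold, 12 passed it and 0 changed sign. Their size was less steady. For glyphosate against control, LMB_Assem.10271.C1 ran from -1.36 to -0.12. In that comparison LMB_Assem.4535.C1 ran from 0.83 to 1.715 and contig74960 from -1.71 to -0.76. The smallest count of a listed contig was 24, and no limit of depth was tested. The causes were not tested.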
